A study of Rattus norvegicus with 6 samples.

Results

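The chemokines, the interleukins and their receptors were examined in the livers of rats that had received a faecal microbiota transplant. Genes were chosen by name alone: those whose symbol begins with Ccl, Ccr, Cxcl or Cxcr and a number, or with Il and a number, leaving out Il6r and Il6st. The rule found 127 genes among the 30957 in the table, namely 32 chemokine ligands, 17 chemokine receptors, 40 interleukins and soluble inhibitors, 37 interleukin receptor chains and Il4i1, a secreted amino acid oxidase that only shares the name. The livers, 3 t-PBS and 3 t-DHEA, were those of female Sprague Dawley rats, which came into the study at 3 weeks of age. All 6 rats first drank an antibiotic cocktail (ampicillin, neomycin, metronidazole and vancomycin) in 3 courses, which made them pseudo germ-free, so neither group is a conventional control. They then received 14 daily gavages of pooled faecal microbiota, from PBS-injected donors in the t-PBS group and from donors injected with DHEA (dehydroepiandrosterone, an androgen precursor used to model polycystic ovary syndrome) in the t-DHEA group. Only the donors were injected. Donor material was pooled and rats were housed in pairs, so the recipients of a group were not fully separate from one another. How the 3 sequenced livers of each group were picked is not given in the sources used here.

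Chemokines are small secreted proteins that bind G protein-coupled receptors on leukocytes and direct their migration into tissue. Interleukins are signalling proteins that act through receptor chains, most of them coupled to JAK kinases and STAT factors or, for the Il1 and Il18 families, to Myd88 and NF-kB. In the liver these genes are used by Kupffer cells, sinusoidal endothelium, stellate cells, lymphocytes and hepatocytes, and hepatocytes carry many interleukin receptors.

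Promoters are shown for the chemokine ligands that were lower in t-DHEA livers (Cxcl9, Cxcl16 and Cxcl1) and for the neighbours of Cxcl9, to set their sequences beside the values given further on. Cxcl9, Cxcl10 and Cxcl11 are neighbours on chromosome 14, and all bind the receptor Cxcr3. Each sequence is RefSeq's, from the GRCr8 assembly, read 5′ to 3′ on the gene's strand from 250 bases before its start to 50 bases into it. Capitals mark matches on either strand to the GAS motif of STAT factors (TTCNNNGAA), a core of the interferon-stimulated response element (GAAA, any 2 bases, then GAAA) or a form of the NF-kB site (GGG, any 3 bases, then TTCC).

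Cxcl9, chr14:16006916-16007215, plus strand: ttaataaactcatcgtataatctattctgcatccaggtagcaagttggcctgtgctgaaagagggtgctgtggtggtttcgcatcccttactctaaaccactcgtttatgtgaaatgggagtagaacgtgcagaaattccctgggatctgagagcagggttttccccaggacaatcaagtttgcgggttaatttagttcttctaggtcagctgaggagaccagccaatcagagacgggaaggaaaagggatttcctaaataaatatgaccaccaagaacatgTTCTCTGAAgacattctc
Cxcl10, chr14:15988816-15989115, plus strand: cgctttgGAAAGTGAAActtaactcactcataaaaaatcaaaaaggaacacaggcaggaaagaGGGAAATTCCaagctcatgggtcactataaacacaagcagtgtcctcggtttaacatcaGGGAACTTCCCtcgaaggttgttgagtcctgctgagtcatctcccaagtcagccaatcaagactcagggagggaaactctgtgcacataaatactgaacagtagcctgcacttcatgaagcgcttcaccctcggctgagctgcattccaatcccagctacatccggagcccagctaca
Cxcl11, chr14:15973478-15973777, plus strand: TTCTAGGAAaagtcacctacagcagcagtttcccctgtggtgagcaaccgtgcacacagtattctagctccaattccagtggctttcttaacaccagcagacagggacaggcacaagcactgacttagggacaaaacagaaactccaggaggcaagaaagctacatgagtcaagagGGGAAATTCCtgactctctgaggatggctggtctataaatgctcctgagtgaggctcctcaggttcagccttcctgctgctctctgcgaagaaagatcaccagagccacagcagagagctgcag
Cxcl16, chr10:55669901-55670200, minus strand: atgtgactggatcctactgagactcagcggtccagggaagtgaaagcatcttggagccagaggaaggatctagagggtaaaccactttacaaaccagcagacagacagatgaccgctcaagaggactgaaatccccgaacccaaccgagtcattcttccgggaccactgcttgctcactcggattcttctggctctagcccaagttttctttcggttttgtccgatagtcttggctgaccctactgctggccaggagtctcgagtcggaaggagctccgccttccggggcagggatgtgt
Cxcl1, chr14:17479272-17479571, minus strand: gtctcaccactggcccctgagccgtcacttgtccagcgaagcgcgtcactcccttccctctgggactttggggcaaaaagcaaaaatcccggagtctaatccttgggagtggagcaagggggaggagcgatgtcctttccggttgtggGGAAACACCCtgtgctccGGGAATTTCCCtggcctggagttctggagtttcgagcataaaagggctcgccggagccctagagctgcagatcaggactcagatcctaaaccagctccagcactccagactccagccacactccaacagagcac

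The Cxcl9 window held 1 GAS match, which lies 32 bases into the transcript. The Cxcl10 window held 1 interferon element core and 3 NF-kB matches, of which 2 overlap on opposite strands. The Cxcl11 window held 1 GAS and 1 NF-kB match, and the Cxcl1 window held 3 NF-kB matches, 2 of them overlapping. No match to these letters was found in the Cxcl16 window. Of the 127 genes, 97 had a promoter in the RefSeq table. A GAS match was present in 14 of them (14.4%), against 9.39% of all 27457 genes in the table. The interferon element core was present in 10 (10.3%, against 4.12%) and the NF-kB form in 18 (18.6%, against 5.77%). These are descriptions of letters and not of bound sites.

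Most of these genes were barely transcribed in the liver samples. Of the 127, 101 had at least 1 count in some liver and 81 had more than 3 counts in at least 1 liver, at totals of 12348511 to 14316886 counts per liver. Of the 101 detected genes, 24 had 10 counts or fewer in the 6 livers together. At the other end, 11 genes had more than 600 and up to 6000 counts in all, and 6 had more than 6000. Each liver held counts for 81 to 84 of the genes, and the genes together took between 0.176% and 0.193% of all counts. The 2 groups overlapped in that share of the raw totals (0.183%, 0.183% and 0.176% in t-PBS, 0.186%, 0.193% and 0.183% in t-DHEA livers). With counts scaled to a common library size by edgeR's TMM factors (CPM), the groups did not overlap. The genes then summed to 1839, 1759.7 and 1756 CPM in t-PBS and 1898, 1954 and 1851 in t-DHEA livers. The chemokine ligands were also apart (1035 to 1179 against 1195 to 1287 CPM). The chemokine receptors, the interleukins and inhibitors, and the interleukin receptor chains overlapped. These sums were not tested.

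The 26 genes listed at 0 in all 6 livers were unevenly spread over the roles. They comprised 17 of the 40 interleukins and inhibitors, but 3 of 32 chemokine ligands, 3 of 17 chemokine receptors and 3 of 37 interleukin receptor chains. Among them were Il6, the main inducer of the hepatic acute phase response, the T cell growth factor Il2, Il5, Il9, Il17a, Il17f and Il22, and the neutrophil attractant Cxcl2. A count of 0 allows up to 3 counts in a liver, or 0.21 to 0.248 CPM (counts scaled to a common library size, with edgeR's TMM factors where CPM values of genes are given), so these genes were not detectable at this depth. Such floors cover counting error only. Receptor chains were detected for 34 of 37 genes and interleukins or inhibitors for 23 of 40. Il17ra, the shared receptor of several Il17 proteins, had 668 to 958 counts per liver while Il17a and Il17f had none.

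**Figure D1:**
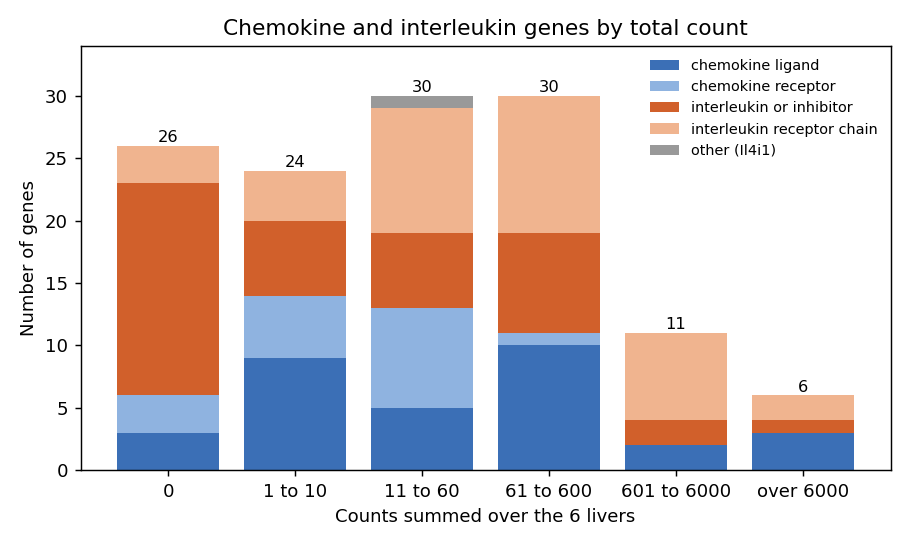
Number of genes (vertical axis) in each band of total counts over the 6 livers (horizontal axis), split by role. The lowest band holds the 26 genes without a count, 17 of them interleukins or inhibitors, and 6 genes lie above 6000 counts.

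A few genes supplied most of the reads. Of the 146568 counts on these genes, 29.3% belonged to Ccl9, a macrophage-attracting chemokine, and 54.9% to Ccl9 and Cxcl12 together. The 10 most counted genes held 88.7%. On a scale that corrects for gene length (FPKM, fragments scaled by gene length and library size, as deposited), Ccl9 was at a mean of 418 over the 6 livers, with a range of 374 to 446. It was followed by Cxcl12 at 86.9 FPKM, Ccl6 at 69.4 and Il33 at 60.3. Cxcl12 retains Cxcr4-bearing cells in their niches, and Il33 is a nuclear alarmin released from damaged cells. Cxcl12 (70.7 to 105 FPKM) and Ccl6 (63.1 to 77.3) overlapped in range, as did Ccl6 and Il33 (51.8 to 66.2), while Ccl9 stood clear of these genes. Within each liver, however, Cxcl12 was above Ccl6. The most abundant receptor chains were Il13ra1 at 28.2 FPKM, Il1r1 at 20.9, Il4r at 17.6, Il17ra at 15.7 and Il1rap at 14.4. Il13ra1 and Il4r together form a receptor for Il4 and Il13, and Il1rap is the accessory chain of Il1r1. In this order Il13ra1 (24.5 to 31.9 FPKM) lay above Il1r1 (19.2 to 23.9) in every liver, and the ranges of Il4r, Il17ra and Il1rap overlapped. Within each liver Il4r was above Il1rap. The soluble inhibitor Il18bp, at 15.6 FPKM, stood above its ligand Il18, at 5.89, with ranges of 13.6 to 17.3 and 4.62 to 6.98. Likewise Il1rn, which blocks Il1r1, was at 7.82 FPKM against 4.27 for Il1a and 3.03 for Il1b. The annotated span of Il18 shares 5006 of its 22441 bases with Bco2, which had 399 to 716 counts per liver. The assignment of reads to Il18 is therefore uncertain. Chemokines in tandem clusters, such as Ccl9 beside Ccl6, resemble each other, and the division of reads between such copies is uncertain.

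**Figure D2:**
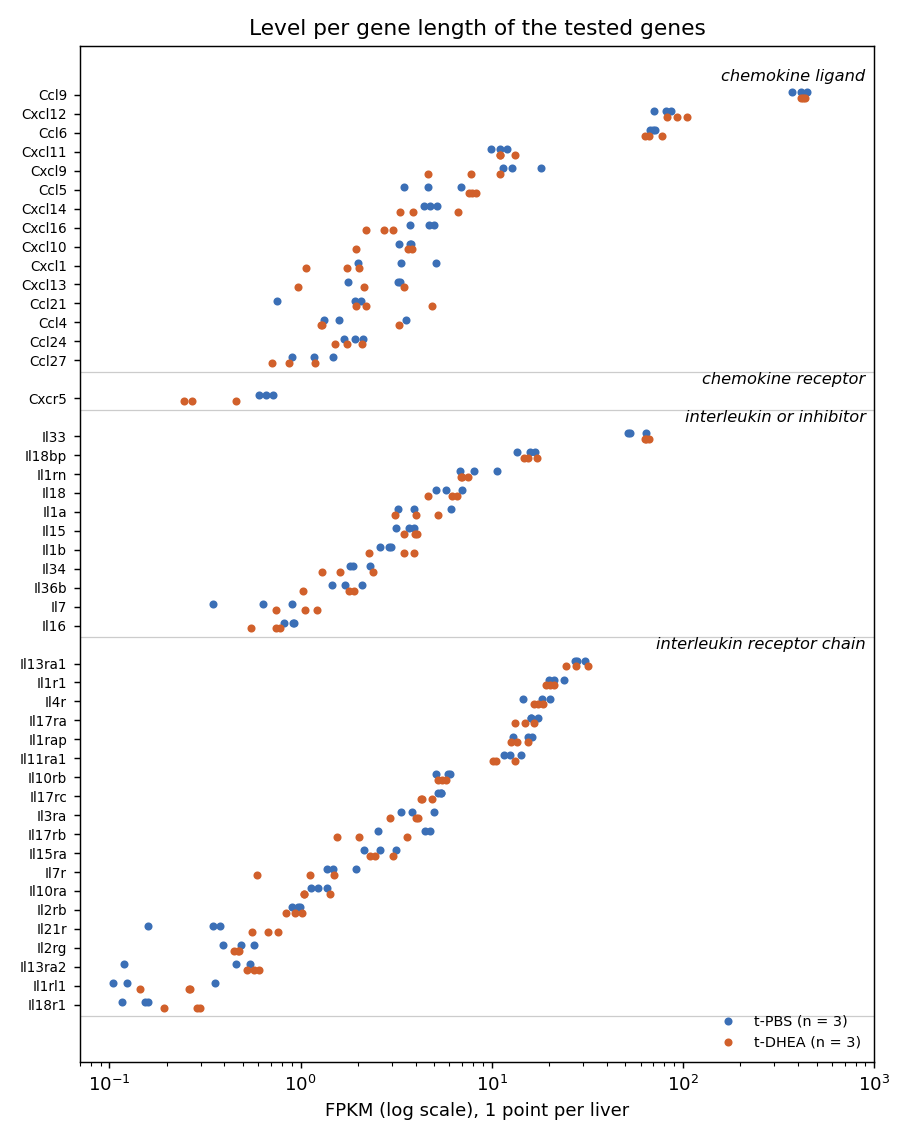
FPKM of the tested genes shown (horizontal axis, log scale), 1 point per liver, with genes grouped by role and ordered by mean level. Ccl9 lies between 374 and 446 FPKM in all 6 livers, while Il18r1 and Il1rl1, at the foot of the plot, lie below 1 FPKM.

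The comparison of t-DHEA with t-PBS livers asked whether the transplanted microbiota of DHEA-treated donors altered hepatic expression. A gene was tested where it passed edgeR's low-count filter, which needs about 10 counts in as many livers as the smaller group has, and 47 of the 127 did. A gene was called by the study's own thresholds, which need a fold change of more than 1.2 either way and a p under 0.05 before adjustment. Of the chemokines and interleukins, the chemokine ligands Cxcl16, Cxcl9 and Cxcl1 and the receptor Cxcr5 were lower in t-DHEA livers, and the ligand Ccl5 and the receptor chains Il21r and Il18r1 were higher. That is 7 of 47 tested genes, or 14.9%, where 4.95% of all 12210 tested genes were called. The lower calls came to 4 (8.51%, against 2.98% of all genes) and the higher calls to 3 (6.38%, against 1.97%). Cxcr5 and Il18r1 reached 10 counts only in the livers of the group where they were higher, so their entry into the test depended on their difference. With a filter that ignores the groups (a mean of at least 10 counts), Cxcr5 was not tested, Il17re was called in its place and the count was again 7 of 47. With at least 10 counts required in every liver, 4 of 39 genes were called (10.3%, against 4.74% of all genes in that fit). Without t-PBS rat 2 the count was 4 of 49 (8.16%, against 4.15%).

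None of the 7 calls survived correction for the number of genes, with edgeR or with DESeq2. With edgeR's quasi-likelihood test and Benjamini-Hochberg adjustment, 0 of 12210 genes had an adjusted p below 0.05, while 634 genes (5.19%) and 7 of the 47 had an unadjusted p below it. DESeq2 gave 24 of all genes and 0 of the 47 an adjusted p below 0.05. The lowest adjusted p among the 47 genes was 0.801 with edgeR, for Cxcl16, and 0.417 with DESeq2, for Cxcl9. The groups did not overlap in CPM for 10 of the 47 genes (21.3%), against 10.1% of all tested genes. Of these, 6 were higher and 4 lower in t-DHEA livers, where 4.67% and 5.42% of all genes were. Cxcr5 and Il18r1 are among the 10, and their entry into the test depended on their difference. Over the 47 genes the median log2 fold change was -0.02, against 0.00 over all tested genes, with 27 genes lower (57.4%, against 49.6% of all genes) and 20 higher in t-DHEA livers.

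**Figure D3:**
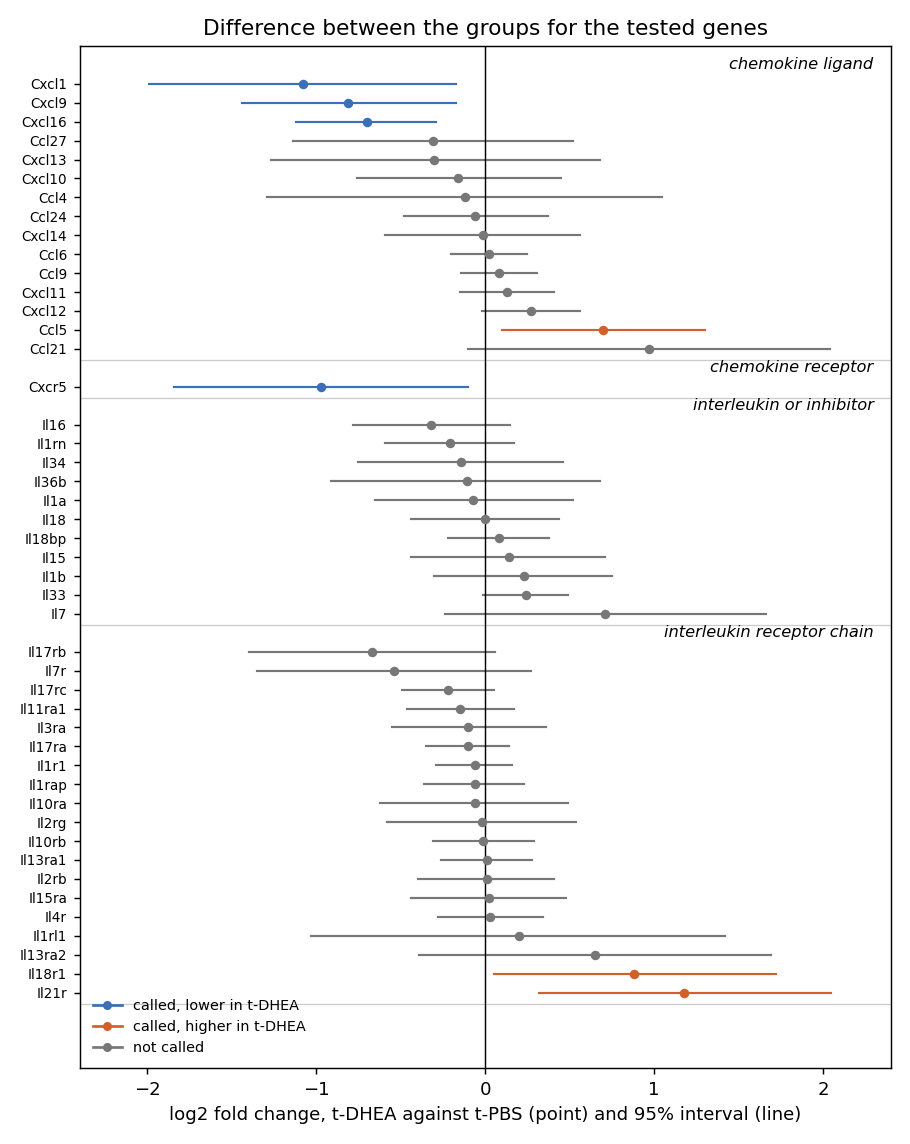
log2 fold change of t-DHEA against t-PBS (horizontal axis) for the tested genes shown, ordered within each role, with the 95% interval of the edgeR fit as a line. The called genes are coloured, with Cxcl1 at -1.08 the lowest and Il21r at 1.18 the highest, and the intervals of the grey genes cross 0.

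Of 15 chemokine ligands tested, 3 were called lower and 1 was called higher in t-DHEA livers (26.7%, against 4.95% of all tested genes). The roles were not tested against each other. Cxcl16, which is made as a membrane-bound ligand of Cxcr6 and attracts T and natural killer T cells, had 91, 104 and 112 counts in t-PBS and 64, 51 and 61 in t-DHEA livers. Every t-DHEA liver was below every t-PBS liver. The level was 7.49 ± 1.05 CPM in t-PBS and 4.60 ± 0.740 in t-DHEA livers (SD, n = 3 each). The fall was 1.63-fold, at a log2 fold change of -0.70 (SE 0.18, 95% interval -1.12 to -0.29, edgeR adjusted p = 0.801). Cxcl16 was called in all 16 fits run, and whichever liver was left out its value stayed between -0.81 and -0.58. Its annotated span shares 119 bases with Zmynd15, which had at most 7 counts in a liver. In bulk liver RNA, fewer cells of a type and less RNA per cell cannot be told apart.

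Cxcl9, an interferon-induced attractant of T cells through Cxcr3, had 246, 351 and 253 counts in t-PBS and 145, 94 and 215 in t-DHEA livers. The groups did not overlap, although t-DHEA rat 3 came close to t-PBS rat 1 (16.6 and 17.2 CPM). The mean fell from 20.7 ± 4.54 to 11.9 ± 4.79 CPM (SD, n = 3 each), a log2 fold change of -0.81 (SE 0.28, 95% interval -1.44 to -0.17, edgeR adjusted p = 0.900). The call was lost without t-PBS rat 2, the highest liver, where the log2 fold change was -0.61, and dropping t-DHEA rat 3 gave -1.12 while dropping t-DHEA rat 2 gave -0.53, the ends of the range over the 6 livers.

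The other ligands of Cxcr3 did not pass the test. Cxcl10 had 53, 55 and 57 counts in t-PBS and 51, 30 and 57 in t-DHEA livers, a log2 fold change of -0.16 (95% interval -0.76 to 0.45). Cxcl11 had 268, 225 and 205 counts against 213, 278 and 225, a log2 fold change of 0.13 (95% interval -0.15 to 0.41). The groups overlapped for both genes. The intervals of Cxcl9 and Cxcl11 did not meet, but the difference between the genes was not tested. Both Cxcl10 and Cxcl11 lie wholly within the annotated span of Art3, which had 7 to 25 counts per liver. The strandedness of the libraries is not given in the sources used here, so the assignment of such reads is uncertain. The 3 genes lie in Rnor_6.0 on chromosome 14, with Cxcl11 at 17195014 to 17198291, Cxcl10 at 17210733 to 17212930 and Cxcl9 at 17228856 to 17234712.

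Cxcl1, a neutrophil attractant that acts through Cxcr2, had 68, 24 and 41 counts in t-PBS and 23, 22 and 13 in t-DHEA livers. The groups were 1 read apart in raw counts (24 and 23) and overlapped in CPM, where t-PBS rat 2 (1.77 CPM) lay below t-DHEA rat 1 (1.90 CPM). The mean was 3.21 ± 1.5 CPM in t-PBS and 1.52 ± 0.461 in t-DHEA livers (SD, n = 3 each), a log2 fold change of -1.08 (SE 0.40, 95% interval -1.99 to -0.17, edgeR adjusted p = 0.935). The call was lost when t-PBS rat 1 was left out (log2 fold change -0.68) or t-DHEA rat 3 was (-0.85). The summed level of the neutrophil markers ran from 0.754 to 1.96 CPM in t-PBS and from 2.24 to 2.89 in t-DHEA livers. Of the 5 markers 2 were tested and S100a9 was called higher, where 4.95% of all tested genes were called. Mpo was at 0 in every liver. The part of neutrophils in the Cxcl1 result was not tested.

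Ccl5, which draws T cells and monocytes, moved the other way. It had 27, 33 and 50 counts in t-PBS and 51, 61 and 56 in t-DHEA livers. In CPM every t-DHEA liver (4.21 to 4.56) was above every t-PBS liver (1.89 to 3.77). The mean rose from 2.70 ± 0.968 to 4.36 ± 0.180 CPM (SD, n = 3 each), a log2 fold change of 0.70 (SE 0.26, 95% interval 0.10 to 1.3, edgeR adjusted p = 0.949). The call was kept when t-PBS rat 3 (1.01) or t-DHEA rat 1 (0.72) was left out, and lost without any of the other 4 livers (t-PBS rats 1 and 2, t-DHEA rats 2 and 3), where the value ran from 0.49 to 0.71.

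The most abundant ligands differed little. Ccl9 had 7647, 7507 and 6400 counts in t-PBS and 6579, 7455 and 7333 in t-DHEA livers, a log2 fold change of 0.08 (95% interval -0.14 to 0.31). Ccl6 was at 94.6 ± 1.73 CPM in t-PBS and 96.1 ± 9.91 in t-DHEA livers (SD, n = 3 each), a difference within the spread between rats. Cxcl12 had 6762, 5795 and 5074 counts against 6269, 7737 and 5869, with overlapping groups, a log2 fold change of 0.27 (95% interval -0.02 to 0.56, edgeR adjusted p = 0.969). It passed the thresholds with DESeq2 (0.27) and when t-PBS rat 1 (0.35) or t-DHEA rat 3 (0.36) was left out. Ccl21, a lymphoid attractant named here after its values were seen, had 9, 21 and 23 counts in t-PBS and 20, 55 and 24 in t-DHEA livers (log2 fold change 0.97, 95% interval -0.10 to 2.04, edgeR adjusted p = 0.969). The t-DHEA mean was raised by rat 2. The gene passed the thresholds without t-DHEA rat 1, within a range of 0.43 to 1.23 as each liver was left out. The other tested ligands (Ccl4, Ccl24, Ccl27, Cxcl13 and Cxcl14) had log2 fold changes of -0.31 to -0.01 and overlapping groups.

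**Figure D4:**
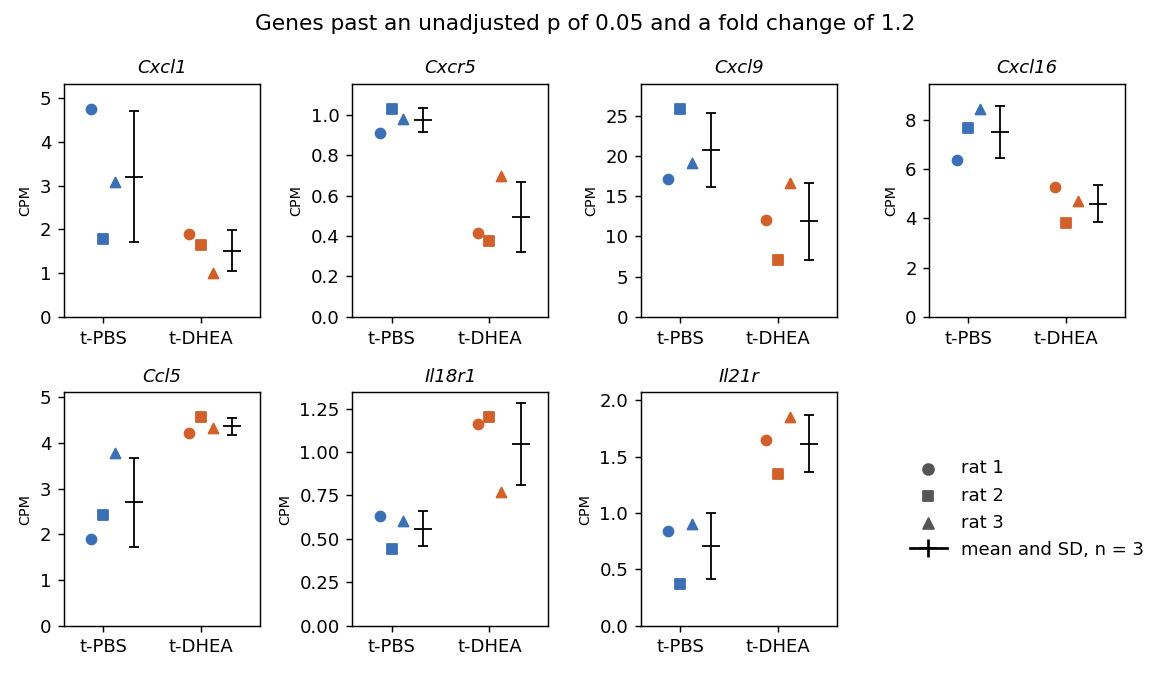
CPM (vertical axis, from 0) of the 7 called genes in each liver, with symbols for the rat and the mean and SD (n = 3) beside each group. The groups are apart for 6 of the genes and overlap for Cxcl1, where t-PBS rat 2 lies at 1.77 CPM and t-DHEA rat 1 at 1.90.

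Only 2 of the 17 chemokine receptors had enough counts to be tested. Cxcr5, which guides B cells and follicular helper T cells towards Cxcl13, had 13, 14 and 13 counts in t-PBS and 5, 5 and 9 in t-DHEA livers. The groups did not overlap, at 0.974 ± 0.0607 CPM in t-PBS and 0.494 ± 0.175 in t-DHEA livers (SD, n = 3 each), a log2 fold change of -0.97 (SE 0.38, 95% interval -1.84 to -0.10, edgeR adjusted p = 0.957). The call was kept without t-DHEA rat 3 (-1.29) and lost without any of the other 5 livers (-1.01 to -0.79), with DESeq2 and with no filter on low counts. Its ligand Cxcl13 had 29, 49 and 49 counts against 49, 15 and 32, with overlapping groups. The summed level of the B cell markers was 2.28 to 2.87 CPM in t-PBS and 2.56 to 2.92 in t-DHEA livers, with none of the 4 called and 1 tested.

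Most chemokine receptors were below the filter. Cxcr3 had 6, 10 and 7 counts in t-PBS and 15, 9 and 7 in t-DHEA livers, Cxcr4 had 10, 7 and 4 against 10, 7 and 9, and Cxcr6 had 1, 9 and 9 against 8, 5 and 9. The groups overlapped for each of these receptors, and Cxcr6 lies wholly within the span of Fyco1, which had 1239 to 1470 counts. The monocyte receptors Ccr1 (3 to 6 counts) and Ccr2 (1 to 4 counts) were near the floor of 3 counts. Cxcr2 had 7, 0 and 0 counts against 0, 1 and 2.

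Among the interleukins and soluble inhibitors, 0 of 11 tested genes were called, where 4.95% of all tested genes were, so the count is near that background. Il33 came closest, with 1851, 1650 and 2065 counts in t-PBS and 1943, 2192 and 2020 in t-DHEA livers. In CPM the groups did not overlap, although the highest t-PBS and the lowest t-DHEA liver both rounded to 156, and the mean was 160 ± 3.98 against 136 ± 17.9 (SD, n = 3 each). The log2 fold change was 0.24 (SE 0.11, 95% interval -0.01 to 0.49, edgeR adjusted p = 0.969), and the gene passed the thresholds without t-PBS rat 3 (0.35). Its receptor chain Il1rl1 had 5 to 19 counts per liver in t-PBS and 7 to 13 in t-DHEA livers.

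The inflammasome-processed cytokines Il1b and Il18 and the inhibitors of this family did not pass the test. Il1b, a main mediator of fever and acute inflammation, had 52, 53 and 55 counts in t-PBS and 60, 43 and 72 in t-DHEA livers, a log2 fold change of 0.23 (95% interval -0.30 to 0.75). Il18, whose span is partly shared with Bco2, had 74, 76 and 93 counts against 82, 63 and 82. Its means were equal at 5.93 CPM, with an interval of -0.44 to 0.44. Il1a, Il1rn and Il18bp had log2 fold changes of -0.07, -0.21 and 0.08, with overlapping groups. Il1rn passed the thresholds, lower in t-DHEA livers, only without t-PBS rat 2 (-0.36) among the fits that left out a liver. Il7, a lymphocyte survival factor, was at 0.674 ± 0.302 CPM in t-PBS and 1.11 ± 0.264 in t-DHEA livers (SD, n = 3 each), a log2 fold change of 0.71 (95% interval -0.24 to 1.66). Il16, a T cell attractant, had a log2 fold change of -0.32 (95% interval -0.78 to 0.15).

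Of 19 interleukin receptor chains tested, 2 were called (10.5%, against 4.95% of all tested genes), both higher in t-DHEA livers and both with few counts. Il18r1 entered the test only through its counts in t-DHEA livers. Il21r, the receptor of the T cell cytokine Il21, had 12, 5 and 12 counts in t-PBS and 20, 18 and 24 in t-DHEA livers. Every t-DHEA liver was above every t-PBS liver. The mean rose from 0.705 ± 0.293 to 1.62 ± 0.255 CPM (SD, n = 3 each), a fold change of 2.27 in the fit and 1.18 on the log2 scale (SE 0.38, 95% interval 0.32 to 2.05, edgeR adjusted p = 0.868). It stayed called whichever liver was left out (0.88 to 1.40), and its ligand Il21 had 1 count in all.

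Il18r1, the ligand-binding chain of the Il18 receptor, had 9, 6 and 8 counts in t-PBS and 14, 16 and 10 in t-DHEA livers. The groups did not overlap, at 0.559 ± 0.102 and 1.04 ± 0.234 CPM (SD, n = 3 each), with a log2 fold change of 0.88 (SE 0.37, 95% interval 0.05 to 1.72, edgeR adjusted p = 0.957). The call was kept without t-DHEA rat 3 (1.07) and lost without any of the other 5 livers (0.75 to 0.98), with DESeq2, with no filter and with limma on log2 FPKM. Its partner chain Il18rap, below the filter, had 7, 5 and 6 counts against 8, 7 and 11.

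The abundant receptor chains differed by less than the spread between rats. Il4r had 1607, 1152 and 1619 counts in t-PBS and 1321, 1527 and 1333 in t-DHEA livers, a log2 fold change of 0.03 (95% interval -0.28 to 0.34). Those of Il1r1, Il1rap, Il17ra and Il13ra1 were -0.06, -0.06, -0.10 and 0.01, and those of Il10rb and Il2rg, shared chains of several interleukin receptors, were -0.01 and -0.02. The groups overlapped for all of these genes.

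The 3 tested receptor chains of the Il17 family (Il17ra, Il17rb and Il17rc) had lower means in t-DHEA livers, and none was called. Il17rb, the receptor of Il25, had 149, 239 and 258 counts in t-PBS and 102, 86 and 194 in t-DHEA livers, with t-DHEA rat 3 above t-PBS rat 1 (15 and 10.4 CPM). The log2 fold change was -0.67 (SE 0.32, 95% interval -1.40 to 0.06, edgeR adjusted p = 0.969). It passed the thresholds with DESeq2 (-0.67) and when t-PBS rat 1 (-0.90) or t-DHEA rat 3 (-1.09) was left out. Il17rc, named after its values were seen, had 175, 165 and 169 counts against 123, 155 and 132 with groups that did not overlap, a log2 fold change of -0.22 (95% interval -0.49 to 0.05, edgeR adjusted p = 0.986).

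Several ligands were well counted while the receptor chain set beside them had few counts. Such a chain need not be a ligand's only receptor. Cxcl12 had 5074 to 7737 counts per liver and Cxcr4 at most 10, and Il33 had 1650 to 2192 counts where Il1rl1 had at most 19. The Il1 pair was the opposite case, with Il1r1 at 1248 to 1578 counts and Il1b at 43 to 72. Counts of different genes also depend on gene length. In mean FPKM over the 6 livers, Cxcl12 was at 86.9 and Cxcr4 at 0.19, and Il33 at 60.3 and Il1rl1 at 0.209. Il1r1 was at 20.9 FPKM and Il1b at 3.03. In no pair plotted did the ligand and its receptor both pass the test. Cxcl9, Cxcl16 and Cxcl1 were called lower while Cxcr3, Cxcr6 and Cxcr2 were below the filter, so these pairs could not both pass.

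**Figure D5:**
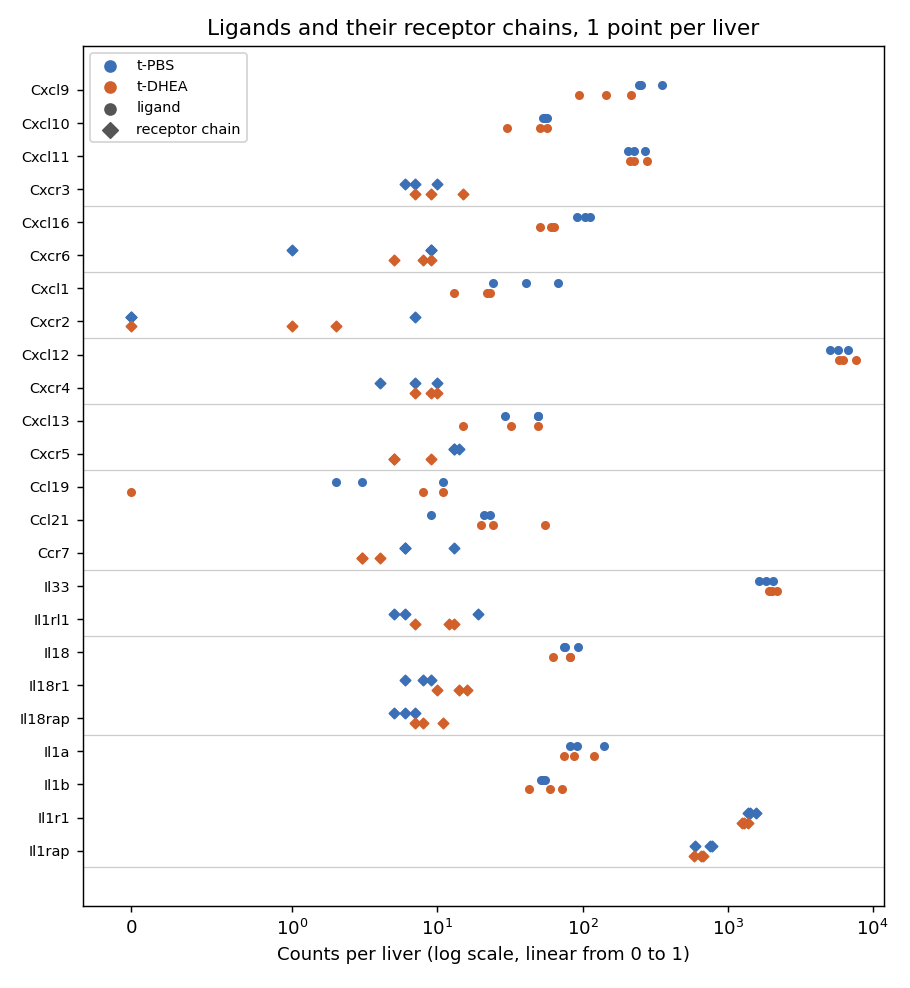
Counts per liver (horizontal axis, log scale, linear from 0 to 1) of ligands (circles) and their receptor chains (diamonds), 1 point per liver, with pairs divided by lines. The counts are not corrected for gene length. Cxcl12 lies at 5074 to 7737 counts and Cxcr4 at 10 or below, while for the Il1 pair the receptor chains lie above the ligands.

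Below the filter were 54 detected genes, with 1 to 63 counts each over the 6 livers (median 11). The CPM values of 8 of these (14.8%) did not overlap between the groups, against 6.87% of all 4977 genes that had a count but did not pass the filter. For 3 against 3 livers an exact two-sided permutation test cannot go below p = 0.1. Groups that do not overlap always give that value, so the test adds nothing for these 8. The 8 were found by looking at their values. Il22ra1, the receptor chain through which Il22 acts on epithelia and hepatocytes, had 6, 3 and 5 counts in t-PBS and 0 in each t-DHEA liver. Ccl11, an eosinophil attractant, had 4, 1 and 3 counts against 0 in each. A count of 0 allows up to 3 counts in a liver, which the t-PBS livers with 1 or 3 counts of these genes do not exceed, so no fold change is given. Without a filter, edgeR gave Il22ra1 an adjusted p of 0.787. Il17re, the receptor of Il17c, had 18, 18 and 9 counts in t-PBS and 3, 9 and 6 in t-DHEA livers (edgeR without a filter, adjusted p = 0.895). These 3 were the genes below the filter with an unadjusted p below 0.05 in that fit, which called 8 of 101 detected genes (7.92%) where it called 4.52% of all genes with a count. Lower values were also seen for Ccr7, the lymph node homing receptor, with 13, 6 and 6 counts against 4, 3 and 3, and for Il23a and Il12rb1. Ccr3, the eosinophil receptor of Ccl11, went the other way, with 1, 0 and 1 counts against 4, 3 and 2, as did Il18rap.

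Several inflammatory genes were below the filter, with few counts in both groups. The monocyte attractant Ccl2 had 9, 11 and 6 counts in t-PBS and 12, 9 and 9 in t-DHEA livers, and Ccl3 had 0, 5 and 5 against 4, 6 and 9. The anti-inflammatory Il10 had 0 to 4 counts in every liver. Ccl19 had 0 to 11 counts, Ccl22 had 3 to 9, Il17b had 3 to 15 and Il27ra had 0 to 7, with overlapping groups.

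Of a list of 57 downstream genes (JAK kinases, STAT factors, their Socs inhibitors, the Myd88 and NF-kB pathway and chemokine receptor signalling), 54 were tested, 0 were called higher and 1 was called lower (against 4.95% of all tested genes called either way), with a median log2 fold change of 0.008 against 0.001 over all tested genes. The 1 was Tnfaip3, an NF-kB target that feeds back on the pathway, with 65, 62 and 74 counts in t-PBS and 40, 51 and 41 in t-DHEA livers (log2 fold change -0.51, SE 0.19, edgeR adjusted p = 0.935). Of 20 genes of the same systems that carry other names, such as Cx3cl1, Xcr1 and Ackr3, 11 were tested. Of these 1 was called, Osmr, where 4.95% of all tested genes were called. This receptor of oncostatin M had 226, 199 and 139 counts against 272, 403 and 186, with overlapping groups (log2 fold change 0.71, SE 0.26, edgeR adjusted p = 0.935).

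Markers of the cells that could carry these genes did not move as one. The calls below stand beside 4.95% of all tested genes called either way. The summed level of 10 T and NK cell markers was 12.2 to 14.4 CPM in t-PBS and 12.3 to 13.7 in t-DHEA livers. Of 6 tested, Gzma was called lower, while the other 5 had higher values in t-DHEA livers and were not called. The 4 pan-leukocyte markers summed to 61.3 to 65 CPM against 51.4 to 61.9, with 3 lower, of which Cd53 was called, and 1 higher. The Kupffer cell markers summed to 468 to 566 CPM against 505 to 685, with 0 of 7 tested called, and the dendritic cell markers to 5.13 to 7.77 against 3.29 to 8.17. Stellate cell markers were at 318 to 353 CPM against 282 to 321, with 0 of 6 called. Sinusoidal endothelial markers were at 282 to 425 against 403 to 412, with 4 higher, of which Kdr was called, and 2 lower. The mesothelial markers summed to 20.8 to 23.4 CPM in t-PBS and 1.57 to 9.80 in t-DHEA livers, with 3 of 3 tested called lower, and the bile duct markers to 18.2 to 22.8 against 9.05 to 15.7, with Krt19 and Krt7 called lower among 4 tested. Red blood cell markers summed to 176 to 274 CPM against 295 to 581, with 3 of 4 called higher. The liver identity of the samples was plain, with the 5 hepatocyte markers at 118320 CPM or more in every liver. Most of that sum was Alb, at means of 115235 CPM in t-PBS and 121773 in t-DHEA livers. Of the 5, Tat was called higher (log2 fold change 0.68, SE 0.19, edgeR adjusted p = 0.805) and the rest were not called. Whether the cells behind these markers had a part in the chemokine and interleukin results was not tested.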

How the data were processed

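Hepatic mRNA of 6 FMT recipients was measured, 3 in each group by their labels. The authors prepared paired-end libraries, filtered reads with Seqtk, mapped them to Rnor_6.0 with HISAT2 2.0.4 and counted fragments per gene with StringTie 1.3.0, as the submitters' processing notes and methods state. The deposited raw counts carry no normalisation. The FPKM values were also made by the authors, from the same counts, and were used for levels between genes. Annotation release and strandedness are not given in the sources used here.

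In R 4.3.3, TMM factors (0.9816 to 1.042) were computed with edgeR 4.0.16, followed by its quasi-likelihood test over all genes passing its default filter (minimum count 10), with p-values adjusted by the Benjamini-Hochberg method. The study's methods state edgeR on FPKM values, and the count test was run here on the counts. DESeq2 1.42.0 and limma 3.58.1 (log2 FPKM plus 0.1 or 1) were alternatives. The edgeR, DESeq2 and limma tests were tried on simulated counts, with limma on CPM in place of FPKM. The other steps were not. Figures were drawn with matplotlib 3.10.9 in Python 3.11.15.

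Genes named in the text are those called, the 5 most abundant and the 3 with the lowest p in each role, the 3 most counted below the filter in each role, and a fixed set of well-known members; others are said to be chosen after their values were seen, or belong to a list or pair. The members, lists and pairs were chosen with earlier results of these data known. Totals of 12348511 to 14316886 counts per liver set the floor of 3 counts. Replicates are single rats, some of which may have shared a cage, so p-values measure the spread between these samples. A member counted among those tested is not reported here.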

Additional observations from a re-analysis of the deposited data

How the results depend on the processing

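In every alternative fit that tested them, the 7 called genes kept their direction, but not always their call. Cxcr5 was not tested with a mean of at least 10 counts, nor Cxcr5, Il21r and Il18r1 with at least 10 counts in every liver. The count of 7 called genes fell to 4 where at least 10 counts were required in every liver and to 0 with an adjusted p below 0.05, and ran from 4 to 7 with one liver left out, the lowest without t-PBS rat 2. DESeq2, RLE factors, library totals and a mean of at least 10 counts gave 7, a fold change above 1.5 gave 7, limma gave 6 with either pseudocount, and no filter gave 8. Over all genes the count of 604 became 414 with DESeq2, 275 with a fold change above 1.5 and 0 with an adjusted p below 0.05 (24 with DESeq2), and ran from 514 to 747 with one liver left out. Library totals alone gave 157 higher and 471 lower genes (25.0% higher), and limma 165 and 448, then 147 and 390, where the fit reported gave 240 and 364 (39.7%). Rat numbers shared between the groups are not known to pair the samples. The deviations of same-numbered livers correlated at -0.057, -0.059 and -0.055, and those of other livers at -0.068 to 0.116. With 3 livers per group, each centred on its group mean, these values cannot settle pairing. With the number as a replicate block, 8 of the 47 genes and 539 of all genes were called, with Cxcr5 and Il18r1 lost and Cxcl12, Il17rb and Ccl21 gained. Detection at more than 3 counts in a liver left 81 of the 101 detected genes.

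For 29 tested genes named above, 430 alternative values were computed, of which 366 kept direction and side of the threshold, 25 lost the call, 10 gained it and 29 changed sign, all in genes that were not called. Ccl6 became -0.01 with library totals and -0.02 in both limma fits, Il18 0.00 with DESeq2 and RLE factors and 0.01 without a filter, Il4r -0.01 with library totals, and Il13ra1 -0.03 with library totals and -0.04 in both limma fits. With one liver left out, Ccl6 ran from -0.06 to 0.08, Il18bp from -0.02 to 0.16, Il1a from -0.27 to 0.22, Il18 from -0.10 to 0.15, Il4r from -0.11 to 0.14, Il1r1 from -0.11 to 0.02, Il1rap from -0.17 to 0.01, Il13ra1 from -0.10 to 0.10, Cxcl10 from -0.32 to 0.10, Il2rg from -0.14 to 0.09 and Il10rb from -0.10 to 0.04. The cause was not tested.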
